A study of Mus musculus with 12 samples.

Results

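Expression of 10 genes that mark neutrophils was examined in cultures of mouse splenic CD4+ T cells. The members were S100a8, S100a9, Ly6g, Mmp8, Mmp9, Csf3r, Cxcr2, Retnlg, Camp and Ngp, and they were found by their symbols among the 45777 genes of the deposited table. Spleens of wild type C57BL/6 mice aged 7 weeks gave the cells, which were taken out with magnetic CD4 beads and kept for 3 days with anti-CD3 at 0.5 µg/ml. There were 4 groups of 3 samples: the stimulus alone (Control), the stimulus and metformin, the stimulus and FK506, and the stimulus and both drugs together (Metformin+FK506). Metformin is a diabetes drug that lowers mitochondrial respiration. FK506, or tacrolimus, blocks calcineurin, the phosphatase that T cells need to switch on NFAT. Age and stimulus are given as in the labels, whereas the study's methods also list soluble anti-CD28 and give the mice as slightly older. The drug doses of these cultures are not given in the sources used here, and nothing says whether the samples of a group came from separate animals, so the p-values measure only the spread between these samples.

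Neutrophils are short-lived granulocytes that leave the bone marrow under the growth factor G-CSF and enter tissue along gradients of CXC chemokines. They make their granules in order while they mature. Primary granule proteins such as myeloperoxidase come first, secondary granule proteins such as lactoferrin, cathelicidin and Ngp follow, and tertiary granule proteins such as Mmp9 come last. Mature neutrophils hold large amounts of the calcium-binding pair S100a8 and S100a9 in the cytosol, and in mice they carry Ly6g on the surface. The spleen houses neutrophils beside its lymphocytes and macrophages, and a bead-selected CD4+ culture can hold some of these cells.

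The labelled cell type was visible in every group. All 10 T cell markers were expressed, and their FPKM values (fragments per kilobase of transcript, scaled to library size) summed to between 2022 and 2389 in the 12 samples. Their sum was 2330 to 2389 FPKM in Control and lower, at 2022 to 2094 FPKM, with FK506. Between 43402632 and 64290105 reads were counted per sample. A gene with no read was taken to have at most 3, a limit that covers counting error only. Markers of other cells were much higher in the groups with FK506. The 10 macrophage and monocyte markers summed to 79.5 to 84.5 FPKM in Control, 50.7 to 53.9 with metformin, 1320 to 1364 with FK506 and 878 to 995 with both drugs. For the 10 B cell markers the sums were 62.1 to 66.3, 88.2 to 102.6, 885 to 925 and 426 to 457 FPKM in the same order. The defining macrophage genes Adgre1 and C1qa were at 0 in all Control samples. Ly6c2, which T cells also express, held 75.6 FPKM of the Control and 42.0 FPKM of the metformin sum on average and was at 37.2 FPKM with FK506. These sums were higher in FK506 than in Control, as most of the neutrophil genes described below were, and their part in the results was not tested. In bulk RNA, fewer cells of a type and less RNA per cell cannot be told apart.

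Promoter sequences from RefSeq on GRCm38.p6, the assembly also called mm10, were available for 9 of the 10 members, all but Mmp9. Each runs from 250 bases before to 50 bases after the annotated start. The promoters shown belong to the adjacent pair S100a8 and S100a9, to Ngp and Mmp8, which are both granule genes of chromosome 9 with different values under both drugs, and to Ly6g, the member with the opposite pattern. Capitals mark matches, on either strand, to TTGCNNAA (a relaxed form of the sequence bound by C/EBP factors, which is not the same on both strands), GAGGAA (a core bound by PU.1) or GGAAAA (a core bound by NFAT), of which the last can overlap GAGGAA.
S100a8, chr3:90668821-90669120, plus strand: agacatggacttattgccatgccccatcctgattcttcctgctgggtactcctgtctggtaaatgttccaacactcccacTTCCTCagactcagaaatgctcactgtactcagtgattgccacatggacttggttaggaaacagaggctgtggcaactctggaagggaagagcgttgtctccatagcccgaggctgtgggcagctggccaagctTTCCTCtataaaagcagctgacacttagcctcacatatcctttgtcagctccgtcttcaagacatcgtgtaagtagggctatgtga
S100a9, chr3:90695672-90695971, minus strand: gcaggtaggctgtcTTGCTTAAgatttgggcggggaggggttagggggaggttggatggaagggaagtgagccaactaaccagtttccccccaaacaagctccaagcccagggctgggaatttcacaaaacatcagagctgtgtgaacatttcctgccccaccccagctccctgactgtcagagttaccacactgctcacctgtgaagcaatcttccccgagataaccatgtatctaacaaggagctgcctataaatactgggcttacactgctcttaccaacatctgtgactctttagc
Ngp, chr9:110419558-110419857, plus strand: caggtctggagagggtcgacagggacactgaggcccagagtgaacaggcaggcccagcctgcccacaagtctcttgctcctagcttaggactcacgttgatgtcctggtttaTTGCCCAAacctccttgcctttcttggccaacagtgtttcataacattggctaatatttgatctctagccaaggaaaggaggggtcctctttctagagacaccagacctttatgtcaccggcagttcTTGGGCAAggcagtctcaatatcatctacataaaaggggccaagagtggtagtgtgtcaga
Mmp8, chr9:7558179-7558478, plus strand: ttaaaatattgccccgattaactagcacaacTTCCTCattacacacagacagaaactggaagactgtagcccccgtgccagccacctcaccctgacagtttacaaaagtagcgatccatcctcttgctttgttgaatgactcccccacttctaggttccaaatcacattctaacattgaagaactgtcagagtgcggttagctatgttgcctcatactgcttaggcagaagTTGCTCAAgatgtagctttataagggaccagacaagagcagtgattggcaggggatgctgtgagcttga
Ly6g, chr15:75155011-75155310, plus strand: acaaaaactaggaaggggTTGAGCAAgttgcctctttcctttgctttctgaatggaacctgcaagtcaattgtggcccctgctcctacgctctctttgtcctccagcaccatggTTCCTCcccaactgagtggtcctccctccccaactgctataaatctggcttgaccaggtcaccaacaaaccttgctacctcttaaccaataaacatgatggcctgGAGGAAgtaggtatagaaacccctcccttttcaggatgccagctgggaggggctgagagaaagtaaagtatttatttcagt

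TTGCNNAA stood in the windows of 5 of the 9 members (Ly6g, Mmp8, Ngp, Retnlg and S100a9), against 10.8% of 32851 mouse promoters of the same length. The Ngp window held 2 matches. The Ly6g match lies in the window shown. The window of another annotated start of Ly6g, chr15:75155079-75155378, does not hold this motif and has 3 matches to the PU.1 core. GAGGAA was found for 5 members (Csf3r, Cxcr2, Ly6g, Mmp8 and S100a8), against 28.3% of all promoters. GGAAAA was found for Retnlg alone, against 23.4% of all promoters. S100a8 and S100a9 are neighbours on chromosome 3 with 22595 bases between them, and Camp and Ngp lie 570351 bases apart on chromosome 9. These matches describe the letters of the windows and locate no binding.

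FK506 raised 8 neutrophil genes that had few or no reads in Control, to mean levels of 0.679 FPKM for Camp to 19.2 FPKM for S100a9. In Control 7 of the 10 members had no read in any sample, and with metformin 8 had none. With FK506 all 10 were detected, and the summed level of the members was 41.3 to 54.7 FPKM, against 2.92 to 3.20 in Control, nearly all of which was Ly6g. With both drugs the sum was 28.5 to 30.1 FPKM, and with metformin alone it was 0.133 to 0.332. The groups did not overlap in this sum.

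Of the members, 9 passed the filter on low values (at least 0.5 FPKM in at least 3 samples), and Cxcr2 did not. With edgeR (quasi-likelihood F test, p-values adjusted by Benjamini-Hochberg over 15197 genes), 8 members were higher in FK506 than in Control and 1 was lower, where 41.3% of all tested genes were higher and 39.6% lower. Ly6g passed the filter only through the Control samples and the other 8 only through the groups with FK506, so these genes had to differ and the count is a description. The counts were the same for Metformin+FK506 against Control, with 8 higher and 1 lower where 42.1% and 39.6% of all tested genes were so, and against metformin 8 were higher and none lower (40.3% and 37.9% of all tested genes). From Control to FK506 the median log2 fold change of all 10 members without the filter, and with groups at 0 set to the limit, was 6.40, and that of the genes that passed the filter was 0.024. The order of the levels with FK506 was S100a9, S100a8, Ngp, Mmp9, Mmp8, Csf3r, Retnlg, Camp, Cxcr2 and Ly6g by mean FPKM. Of the neighbours in this order, the samples of Ngp and Mmp9, of Mmp9 and Mmp8, of Mmp8 and Csf3r, and of Retnlg and Camp overlapped, and the others did not.

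**Figure D1:**
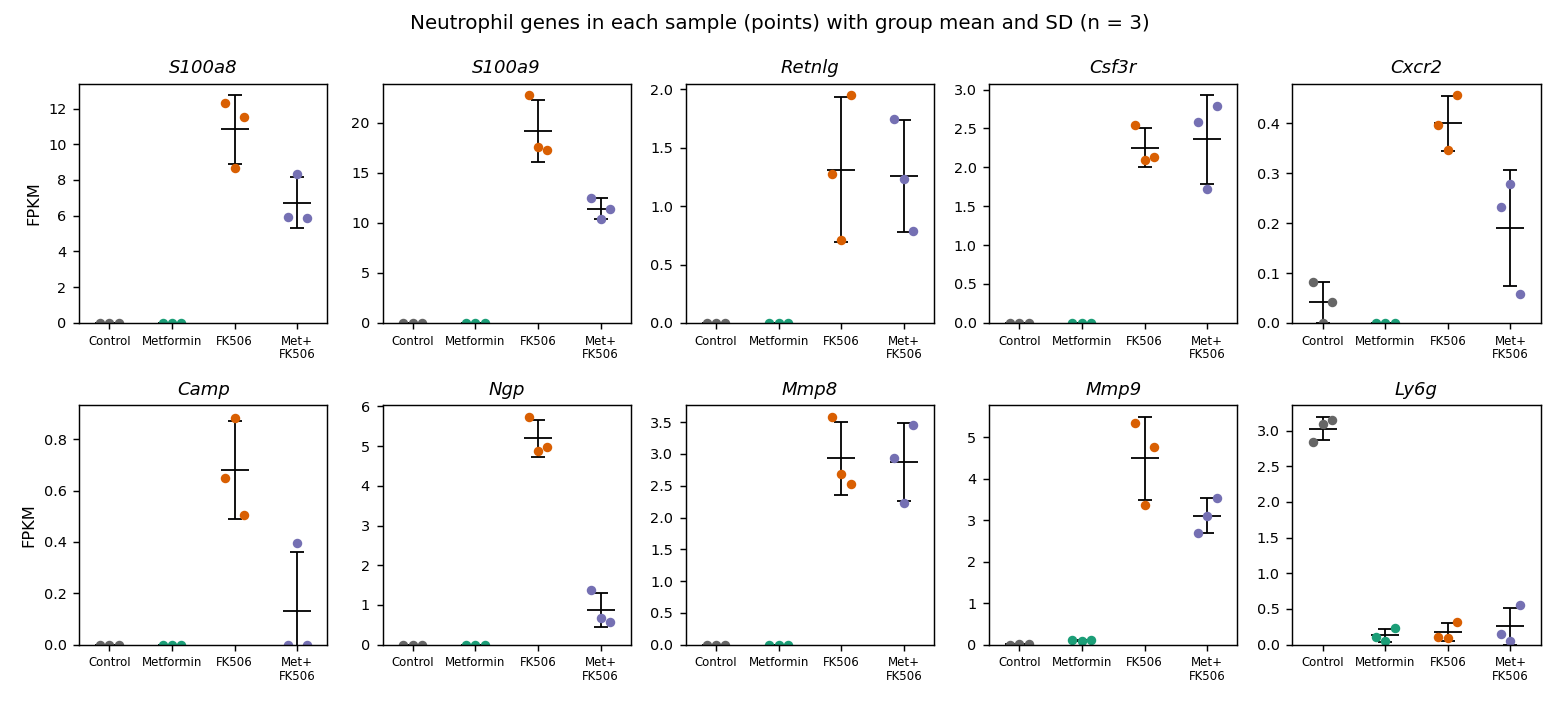
FPKM (vertical axes, each with its own scale) of the 10 neutrophil genes in the 4 groups (horizontal axes). Points are samples, and the bars give the mean and SD of 3 samples. S100a8, S100a9, Retnlg, Csf3r, Camp, Ngp and Mmp8 lie at 0 in all Control and metformin samples, whereas Ly6g is high in Control only, and Ngp is at 0.58 to 1.37 FPKM with both drugs against 4.89 to 5.74 with FK506.

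S100a8 and S100a9 encode the subunits of calprotectin, a cytosolic protein that binds calcium and zinc and that monocytes also make. S100a9 had no read in the Control and metformin samples. With FK506 it was at 22.8, 17.6 and 17.3 FPKM from 819, 587 and 452 reads. With both drugs it was at 12.5, 10.4 and 11.4 FPKM from 363, 393 and 280 reads. Every sample with FK506 alone was therefore above every sample with both drugs. S100a9 was at least 168-fold higher in FK506 than in Control and at least 101.5-fold higher in Metformin+FK506. S100a9 passed the filter only through the groups with FK506 and so had to differ from Control, and these folds are a description. It fell by 0.73 on the log2 scale from FK506 to Metformin+FK506 (SE 0.16, edgeR adjusted p = 0.00382).

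S100a8 followed the same order of groups at a lower level. It had no read without FK506, was at 12.3, 8.66 and 11.5 FPKM with FK506, and was at 5.95, 8.36 and 5.87 FPKM with both drugs. The groups did not overlap, although the highest sample with both drugs came close to the lowest with FK506. The bound on the rise over Control was 71.0-fold with FK506 and 45.0-fold with both drugs. The log2 fold change between the FK506 groups was -0.65 (SE 0.23) and missed the threshold (edgeR adjusted p = 0.0523). The call depended on the setting, with adjusted p = 0.0396 by DESeq2 and, in edgeR, 0.0387 without FK506 replicate 2 and 0.0222 without Metformin+FK506 replicate 2. In edgeR without a filter it did not pass (adjusted p = 0.0793). With each sample left out in turn, the edgeR adjusted p reached 0.1765. The ratio of S100a8 to S100a9 in FPKM was 0.492 to 0.668 with FK506 and 0.477 to 0.801 with both drugs.

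Csf3r, the receptor for G-CSF, was not called as different between the FK506 groups. It was read 600, 524 and 415 times with FK506, at 2.54, 2.09 and 2.13 FPKM. With both drugs it was read 410, 470 and 357 times, at 2.58, 1.72 and 2.79 FPKM, and it had no read without FK506. The samples of the groups with FK506 overlapped. Csf3r was at least 141-fold higher in FK506 than in Control, and its log2 fold change between the FK506 groups was -0.21 (SE 0.14, edgeR adjusted p = 0.271).

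Cxcr2 is the receptor for the chemokines that draw neutrophils into tissue, and it was the member left out by the filter. It was read 14, 0 and 9 times in Control, never with metformin, 83, 68 and 70 times with FK506, and 40, 61 and 9 times with both drugs. In FPKM it was at 0.401 ± 0.0552 (SD, n = 3) with FK506 and at 0.190 ± 0.116 with both drugs. The lowest sample with both drugs lay inside the range of Control. In the edgeR fit without a filter, which called 27.4% of 27636 genes higher in FK506 than in Control, Cxcr2 rose by 2.93 on the log2 scale (SE 0.73, adjusted p = 0.00271). In the same fit it was lower with metformin than in Control (adjusted p = 0.010) by at least 2.70-fold against the limit of 3 reads, where 15.6% of genes were lower and where Control replicate 2 had no read either. Its difference between the FK506 groups did not pass (log2 fold change -1.03, SE 0.63, adjusted p = 0.342), although the FPKM values did not overlap.

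Ngp and Camp encode proteins of the cathelicidin family that neutrophil precursors load into secondary granules, Camp being the precursor of the antimicrobial peptide CRAMP. Ngp had 457, 362 and 288 reads with FK506 and 89, 57 and 32 with both drugs, and none without FK506. In FPKM it was at 5.74, 4.89 and 4.97 with FK506 and at 1.37, 0.678 and 0.580 with both drugs. All samples with both drugs lay far below all samples with FK506 alone. Ngp fell by 2.53 on the log2 scale, which is 5.79-fold (SE 0.29 on the log2 scale, edgeR adjusted p = 4.18e-05). It was still at least 17.4-fold higher with both drugs than in Control, against at least 100.8-fold with FK506 alone.

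Camp was read 27, 34 and 16 times with FK506 and 0, 18 and 0 times with both drugs. It was therefore detected in a single sample with both drugs, Metformin+FK506 replicate 2. Camp passed the filter only through the FK506 samples without metformin. Its log2 fold change between the FK506 groups was -2.05 (SE 0.81) and did not pass (edgeR adjusted p = 0.0766). Without replicate 2 of Metformin+FK506, that group was at 0 and the difference passed in edgeR. Camp was at least 6.94-fold higher in FK506 than in Control, and did not pass there by DESeq2 (adjusted p = 0.0673). Since only the FK506 samples without metformin let Camp past the filter, that pass and this fold are a description. The call of Camp as higher in Metformin+FK506 than in Control (edgeR adjusted p = 0.0340) rested on the 18 reads of that sample, and DESeq2 gave an adjusted p of 0.230. In edgeR that call was also lost without any 1 of the Control samples (adjusted p = 0.0633 to 0.0682), and the call against metformin without any 1 of the metformin samples (0.0676 to 0.0715).

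Mmp8 and Mmp9 encode neutrophil collagenase and gelatinase B, proteases kept in the secondary and tertiary granules. Mmp8 was read 603, 421 and 309 times with FK506 and 400, 394 and 400 times with both drugs, and never without FK506. In FPKM these samples were at 3.58, 2.69 and 2.52 and at 2.93, 2.24 and 3.46, so that the groups overlapped. Mmp8 was at least 120-fold higher in FK506 than in Control, and its log2 fold change between the FK506 groups was -0.012 (SE 0.19, edgeR adjusted p = 0.975).

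Mmp9 rose with metformin alone, unlike the other 2 members that had reads in Control or metformin. It was read 0, 4 and 2 times in Control and 25, 17 and 23 times with metformin, and the log2 fold change was 3.34 (SE 0.57, edgeR adjusted p = 9.61e-05), or 2.85 to 4.25 with each sample left out in turn. Metformin raised 28.6% and lowered 27.4% of all tested genes, and of the members that had reads in either group and passed the filter, Mmp9 was higher and Ly6g lower. Ly6g passed the filter only through Control and so had to be lower. These metformin levels were still under 0.12 FPKM. With FK506 Mmp9 was read 1163, 684 and 763 times, at 5.34, 3.38 and 4.76 FPKM, and with both drugs 477, 708 and 528 times, at 2.70, 3.10 and 3.54 FPKM. The log2 fold change over Control, which rests on 6 Control reads in all, was 8.41 (SE 0.35) with FK506 and 7.90 (SE 0.36) with both drugs. Between the FK506 groups, whose samples overlapped, Mmp9 fell by 0.51 on the log2 scale (SE 0.18, edgeR adjusted p = 0.0373). This call was lost without FK506 replicate 1 (adjusted p = 0.192), without FK506 replicate 3 (0.108), and without Metformin+FK506 replicate 1 (0.117) or replicate 2 (0.0630), and by limma on log2(FPKM + 0.1) (0.0675). The interaction, the metformin effect with FK506 minus the effect without it, was -3.86 on the log2 scale (SE 0.59, edgeR adjusted p = 5.16e-05), where 24.0% of tested genes had a negative interaction past the threshold and 22.5% a positive one.

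Retnlg, a secreted resistin-like protein of granulocytes, was read 54, 28 and 60 times with FK506 and 60, 54 and 23 times with both drugs, and never without FK506. It was at 1.31 ± 0.621 FPKM (SD, n = 3) with FK506 and at 1.26 ± 0.479 with both drugs. Retnlg was at least 13.5-fold higher in FK506 than in Control, and the log2 fold change between the FK506 groups was -0.020 (SE 0.41, edgeR adjusted p = 0.980).

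Ly6g ran against the other members. This surface antigen, the target of the antibodies used to identify and deplete mouse neutrophils, was read 139, 171 and 181 times in Control, 6, 3 and 13 times with metformin, 8, 6 and 15 times with FK506 and 8, 4 and 24 times with both drugs. The Control samples, at 2.84, 3.09 and 3.15 FPKM, lay above all 9 treated samples, which reached 0.554 FPKM at most. Ly6g fell by 4.48 on the log2 scale with metformin (SE 0.56, edgeR adjusted p = 4.14e-06), by 4.30 with FK506 (SE 0.54, adjusted p = 1.64e-06) and by 3.86 with both drugs (SE 0.52, adjusted p = 3.97e-06). The treated groups did not differ past the threshold: the log2 fold change was 0.44 (SE 0.65) from FK506 to Metformin+FK506 and 0.62 (SE 0.69) from metformin to Metformin+FK506 (edgeR adjusted p = 0.659 and 0.418). Without Metformin+FK506 replicate 3 both signs turned, and the log2 fold change from Control to both drugs was then -5.03. The interaction for Ly6g was 4.92 on the log2 scale (SE 0.88, edgeR adjusted p = 0.000233). It is carried by the Control samples, through which alone Ly6g passed the filter, so it too is a description. In Control, where Ly6g was highest, S100a8, S100a9, Mmp8, Csf3r, Retnlg, Camp and Ngp had no read.

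Ly6g belongs to a family of similar genes on chromosome 15, several of which activated T cells express, and how reads shared between them were counted is not given in the sources used here, so its counts are uncertain. Of 6 other family genes, picked after their values were seen, 5 were lower with metformin than in Control and 1 was higher (27.4% and 28.6% of all tested genes). With FK506 3 were lower and 2 higher (39.6% and 41.3%). Ly6c1, a marker of memory T cells and monocytes, was at 107.8 to 118.9 FPKM in Control, 20.8 to 22.3 with metformin, 31.0 to 32.8 with FK506 and 10.6 to 15.4 with both drugs. Ly6a, the activation antigen Sca-1, was at 899 to 909 FPKM in Control, 307 to 319 with metformin, 291 to 319 with FK506 and 197 to 235 with both drugs. Ly6c1 and Ly6a were thus, like Ly6g, highest in all 3 Control samples. Ly6d, a gene of the B cell lineage, went the other way, and rose by 5.57 on the log2 scale with FK506 (SE 0.083, edgeR adjusted p = 3.11e-18). Ly6e also rose with FK506, by 1.10 (SE 0.047, edgeR adjusted p = 1.50e-12), and Ly6i did not pass (log2 fold change -0.13, SE 0.20, edgeR adjusted p = 0.553).

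**Figure D2:**
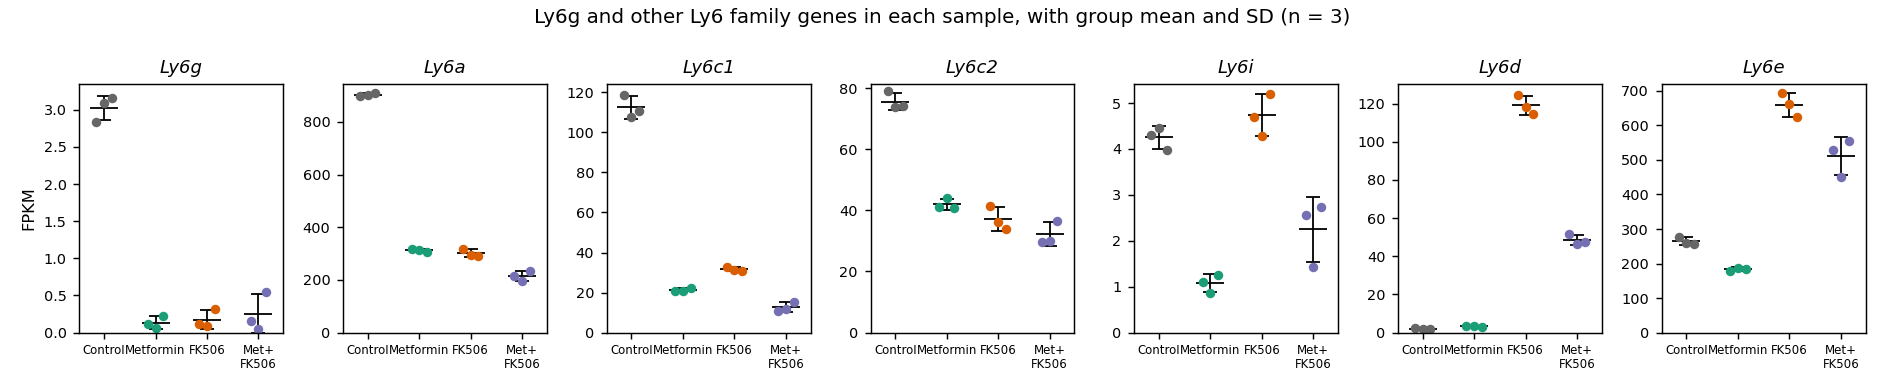
FPKM (vertical axes, each with its own scale) of Ly6g and 6 other Ly6 family genes in the 4 groups (horizontal axes). Points are samples and bars give the mean and SD of 3 samples. Ly6g, Ly6a, Ly6c1 and Ly6c2 are highest in Control, and Ly6d is high only in the groups with FK506.

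S100a8, S100a9, Mmp8, Mmp9 and Csf3r had over 100 reads in every sample of FK506 and of Metformin+FK506, and the other 5 members were more thinly read with both drugs. None of the 9 tested members was higher with both drugs and 3 were lower (S100a9, Ngp and Mmp9) than with FK506, where 15.6% of all tested genes were higher and 15.0% lower. In FPKM, the tested members S100a8, S100a9, Camp and Ngp were lower in every sample with both drugs than in any with FK506, where 22.2% of tested genes were. Of these, Camp had passed the filter only through the FK506 samples without metformin. Cxcr2, which is not among the tested genes, was lower in the same way. The median log2 fold change of all 10 members without the filter was -0.60, and that of the genes that passed the filter was 0.0019. The values of the 9 tested members ran from -2.53 for Ngp to 0.44 (SE 0.65) for the thinly read Ly6g, with Mmp8, Retnlg and Csf3r at -0.012 to -0.21. Ratios between members in the same sample are given as a description, since they were chosen after the values were seen. Ngp was at 1.60 to 1.97 times the FPKM of Mmp8 with FK506 and at 0.167 to 0.469 times with both drugs. The ratio of Mmp8 to Csf3r was 1.19 to 1.41 and 1.14 to 1.30. Ngp made up 10.5% to 11.8% of the summed FPKM of the members with FK506 and 2.00% to 4.56% with both drugs, while the share of S100a9 was 37.2% to 42.6% and 36.6% to 41.4%.

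**Figure D3:**
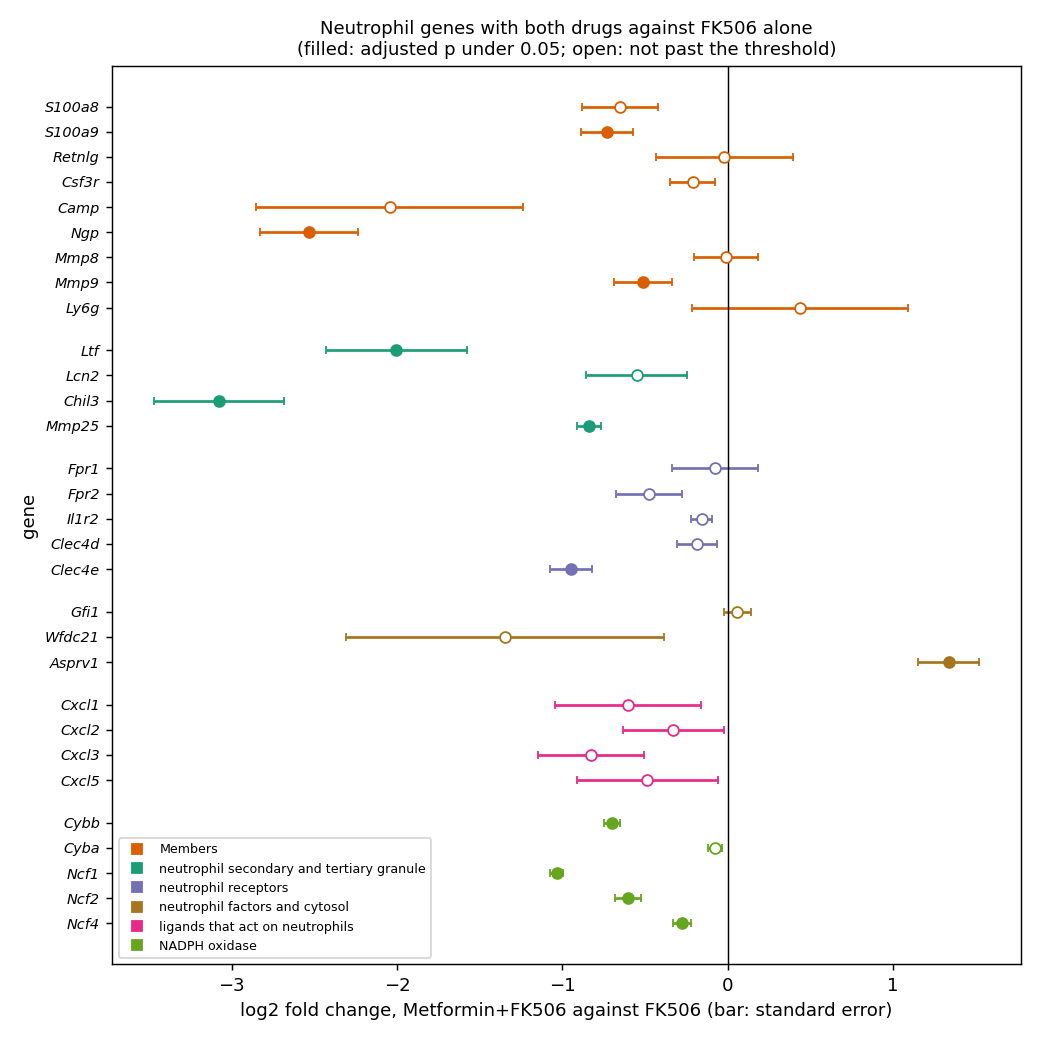
Fitted log2 fold change from FK506 to Metformin+FK506 (horizontal axis) for the 9 members that passed the filter and the tested genes of 5 further neutrophil lists (vertical axis). Points are edgeR estimates, bars are standard errors, and filled points have an adjusted p under 0.05. Ngp, Ltf and Chil3 lie at -2.0 or below with filled points, and Mmp8, Retnlg and Fpr1 lie close to 0.

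Other genes of the neutrophil granules were read as well. None of 4 primary granule genes passed the filter. Mpo, which encodes myeloperoxidase, was read 117, 64 and 99 times with FK506, 0, 4 and 0 times with both drugs and never otherwise, and it was lower with both drugs than with FK506 in the fit without a filter (edgeR adjusted p = 0.000121), where 8.37% of genes were lower. Ctsg, the protease cathepsin G, was read 14 to 26 times per sample with FK506 and never with both drugs, at least 6.30-fold lower (edgeR adjusted p = 0.00731). Elane, neutrophil elastase, had 21 reads in a single FK506 sample and was not called (edgeR adjusted p = 0.188). Prtn3, proteinase 3, had 5 reads in all with FK506 and 10 with both drugs, and was not called (log2 fold change 0.86, SE 2.01, edgeR adjusted p = 0.881).

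Of 6 secondary and tertiary granule genes 4 were tested, and 3 were lower and none higher in Metformin+FK506 than in FK506 (15.0% and 15.6% of all tested genes). All 4 were higher in FK506 than in Control (41.3% of all tested genes), but they had passed the filter only through the groups with FK506 and so had to differ. Ltf and Chil3 had passed it only through the FK506 samples without metformin, so their fall with both drugs, too, is a description. Ltf, the iron-binding protein lactoferrin, was read 313, 265 and 187 times with FK506 and 30, 63 and 79 times with both drugs (log2 fold change -2.0, SE 0.43, edgeR adjusted p = 0.00195). Chil3, a chitinase-like protein that macrophages also secrete, was read 306, 300 and 394 times and 19, 51 and 44 times (log2 fold change -3.08, SE 0.39, edgeR adjusted p = 3.90e-05). For both genes the samples with both drugs lay below those with FK506. Lcn2, the siderophore-binding lipocalin, was at 3.72 FPKM with FK506 and 2.51 with both drugs on average and did not pass (log2 fold change -0.55, SE 0.31, edgeR adjusted p = 0.204). Mmp25, the membrane protease leukolysin, was far higher than any member, at 51.3 to 54.5 FPKM with FK506 and 26.9 to 31.5 with both drugs, and it fell by 0.84 on the log2 scale (SE 0.071, edgeR adjusted p = 2.21e-07). Like Mmp9, Mmp25 rose with metformin alone (log2 fold change 1.86, SE 0.50, edgeR adjusted p = 0.00470), from 0 to 9 reads per sample in Control to 12 to 24.

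Among 7 further receptors of neutrophils 5 were tested. All 5 were higher in FK506 than in Control (41.3% of all tested genes), but Fpr1, Fpr2, Clec4d and Clec4e had passed the filter only through the groups with FK506 and so had to differ. With both drugs 1 of the 5 was lower than with FK506 (15.0% of all tested genes). This was Clec4e, the glycolipid receptor Mincle, which macrophages carry too (log2 fold change -0.95, SE 0.13, edgeR adjusted p = 3.54e-05). The formyl peptide receptors Fpr1 and Fpr2 had no read without FK506, and their log2 fold changes between the FK506 groups were -0.078 (SE 0.26) and -0.48 (SE 0.20), neither past the threshold (edgeR adjusted p = 0.858 and 0.0917). Of 5 ligands that act on neutrophils 4 were tested, and none passed the test between the FK506 groups. All 4 were higher in FK506 than in Control (41.3% of all tested genes), but Cxcl1, Cxcl2 and Cxcl5 had passed the filter only through the groups with FK506 and so had to differ. Cxcl2, a chemokine for Cxcr2, was read at most 6 times per sample without FK506, 277 to 323 times with FK506 and 194 to 256 times with both drugs.

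Of 6 factors and cytosolic genes 3 were tested, and 2 were higher and 1 lower in FK506 than in Control (41.3% and 39.6% of all tested genes). Those higher, Asprv1 and Wfdc21, had passed the filter only through the groups with FK506 and so had to differ. The gene that was lower was Gfi1, a repressor that granulocyte precursors need and that activated T cells also express, which was at 34.6 to 38.5 FPKM in Control and 5.0 to 5.90 with FK506. Asprv1, an aspartic protease of neutrophils and skin, was the list gene that rose with both drugs over FK506, from 1.76 to 2.41 FPKM to 4.44 to 5.74 (log2 fold change 1.34, SE 0.18, edgeR adjusted p = 3.91e-05). All 5 subunits of the NADPH oxidase, which makes superoxide in neutrophils, macrophages and B cells, were higher in FK506 than in Control (41.3% of all tested genes), and 4 were lower with both drugs than with FK506 (15.0% of all tested genes). Ncf1 fell the most, by 1.03 on the log2 scale (SE 0.039, edgeR adjusted p = 2.89e-11).

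The marker sums of macrophages, B cells and basophils were also lower with both drugs than with FK506, whereas the T cell sum was higher, at 2141 to 2201 FPKM against 2022 to 2094, with 5 of its 10 markers higher and 2 lower, where 15.6% of all tested genes were higher and 15.0% lower. All 10 B cell markers fell. Of the 10 macrophage and monocyte markers 4 rose and 1 fell, the last being Lyz2, the lysozyme of macrophages and neutrophils, which holds most of that sum, at 981 ± 10.8 FPKM (SD, n = 3) with FK506 and 539 ± 64.5 with both drugs. Marco, a scavenger receptor of macrophages, was at 100.7 and 101.0 FPKM on average. The part of these cells in the values of the neutrophil genes was not tested.

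**Figure D4:**
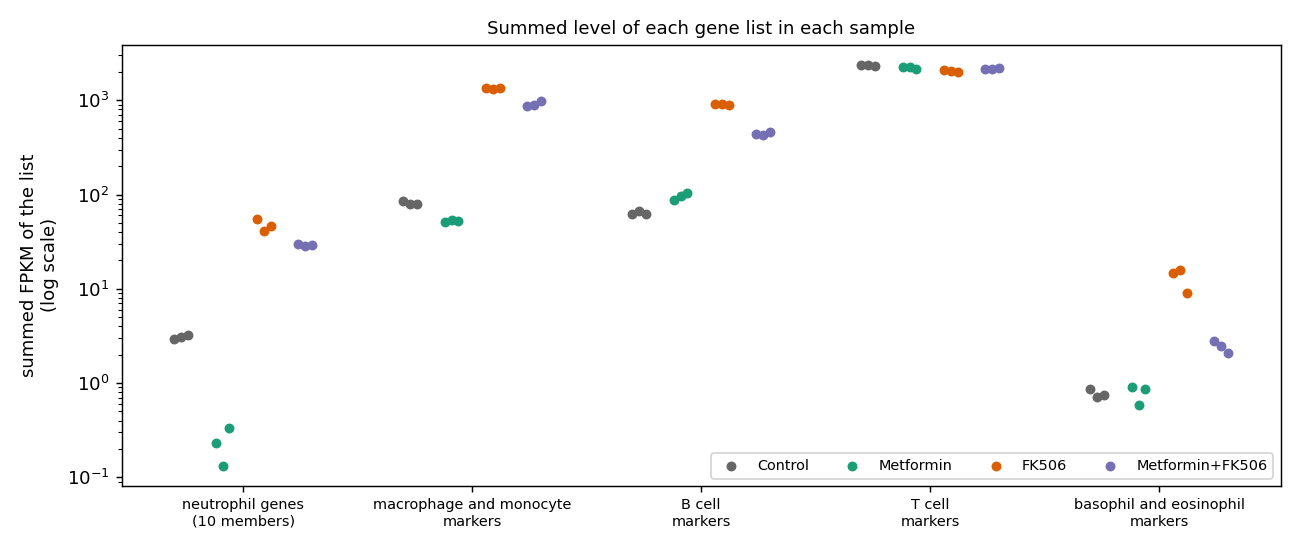
Summed FPKM (vertical axis, log scale) of the 10 neutrophil genes and of 10 markers each of 4 other cell types (horizontal axis), with 1 point per sample. The neutrophil, macrophage, B cell and basophil sums are higher with FK506 than in Control and lower with both drugs than with FK506. The T cell sums are lower with FK506, at 2022 to 2094 FPKM, than in Control, at 2330 to 2389 FPKM.

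Genes whose pattern over the 12 samples was most like that of a member were ranked among 15128 tested genes outside the lists by the root mean square difference of centred log2(FPKM + 1) values. For S100a9 the nearest were Siglecg, Snn, Flt3, Cfb and Slamf8, with differences of 0.133 to 0.168. Flt3, a growth factor receptor of blood cell progenitors and dendritic cells, was at 0.650, 0.670, 32.3 and 21.7 FPKM on average in Control, metformin, FK506 and Metformin+FK506. For Ngp the nearest were Igkv4-80, Pla1a, Fgd2, Igkv5-45 and Igkv12-98, with differences of 0.163 to 0.258, of which 3 are variable segments of the immunoglobulin kappa light chain. Igkv4-80 was at 0.324, 0.299, 5.96 and 1.12 FPKM in the same groups.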

How the data were processed

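Poly(A) RNA of 12 samples, 3 per group as the labels give them, had been sequenced. The authors deposited raw read counts per gene, without normalization, and FPKM values, scaled to library size and transcript length. The submitters' processing notes name bcl2fastq 2.20.0, Trimmomatic, HISAT2 2.1.0, StringTie 2.1.3b and mm10. How shared reads were counted is not given in the sources used here. A further 12 columns with values of single samples were left aside.

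Counts were tested with edgeR 4.0.16 in R 4.3.3 (TMM, glmQLFit, all 12 samples, called at an adjusted p under 0.05), after a filter of at least 0.5 FPKM in at least 3 samples. Standard errors were taken from the fold change and the F statistic. A fold against a group at 0 was computed against 3 reads per library and is a lower bound. The alternatives were DESeq2 1.42.0, its size factors, limma 3.58.1 on log2(FPKM + 1) and log2(FPKM + 0.1), no filter, a mean of at least 1 FPKM, only the groups compared, a replicate block and each sample left out. The test was tried on simulated counts first. The members and lists were chosen with earlier results of these data known. Genes named are the members, list genes that passed the test, the 3 highest markers of each cell type and those at 0, and the 5 genes most like S100a9 and Ngp. Elane, Prtn3, Ccr3 and the Ly6 family genes were named after their values were seen.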

Additional observations from a re-analysis of the deposited data

Results flagged for a closer look

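For 2 members the effect of metformin differed with and without FK506 by the test of that difference. Of all tested genes, 22.5% had a positive interaction past the threshold and 24.0% a negative one. The interaction of Ly6g was 4.92 on the log2 scale, since metformin lowered the reads from 139, 171 and 181 to 6, 3 and 13 without FK506 and left 8, 6 and 15 against 8, 4 and 24 with it. Ly6g passed the filter on low values only through Control, so its interaction is a description. The interaction of Mmp9 was -3.86, since metformin raised the reads from 0, 4 and 2 to 25, 17 and 23 without FK506, whereas with FK506 they were 1163, 684 and 763 without metformin and 477, 708 and 528 with it. Cxcr2, tested only without the filter, did not pass (interaction 5.11, SE 1.94, edgeR adjusted p = 0.0711). For the other 7 members, which had no read in either Control or metformin, the difference could not be measured.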

How the results depend on the processing

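With a mean of at least 1 FPKM, Ly6g was no longer tested, so that 0 members were lower in FK506, metformin or Metformin+FK506 against Control, and 0 had a positive interaction. limma on log2(FPKM + 1) gave 0 members higher with metformin, since Mmp9 was under 1 FPKM there, and 5 lower in Metformin+FK506 than in FK506. Without a filter 2 members were lower with metformin, Cxcr2 being then tested. Between Metformin+FK506 and FK506 the sign of several small differences turned: Csf3r was at 0.035 and 0.041 by limma with a pseudocount of 1 and 0.1; with each sample left out in turn, Mmp8 ran from -0.17 to 0.15, Retnlg from -0.33 to 0.35 and Ly6g from -0.73 to 1.04 (against metformin from -0.54 to 1.28). Camp had no value against Control or metformin without Metformin+FK506 replicate 2. Samples with the same number did not deviate together (r of -0.086 to 0.054 over 18 pairs). With 3 samples per group this cannot exclude a shared source, and whether the numbers pair the samples is not known. With the replicate block Mmp9 lost its call between the FK506 groups (-0.49, edgeR adjusted p = 0.0557), Camp gained it (-2.48, 0.0498), and Retnlg was at 0.032, with no other call changed. The fall of Ngp and of S100a9 kept its call in all 20 alternatives, at -3.0 to -1.74 and -0.81 to -0.59. The depth limits Camp, Retnlg and Cxcr2, which had under 100 reads per sample.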

Other observations

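Of 10 basophil and eosinophil markers 4 passed the filter, and 3 of them (Mcpt8, Prss34 and Il5ra) were lower in Metformin+FK506 than in FK506, where 15.0% of all tested genes were. Ccr3, the remaining one, was at 0.504 and 0.579 FPKM on average with FK506 and with both drugs (log2 fold change 0.23, SE 0.29, edgeR adjusted p = 0.589). Mcpt8, a protease of basophil granules, was read 228, 168 and 73 times with FK506 and 0 times in all other samples. Prss34, another basophil protease, was read 442, 474 and 187 times with FK506 and likewise 0 times elsewhere. They were at least 45.8-fold and at least 109-fold lower in Metformin+FK506 than in FK506. Both genes passed the filter only through the FK506 samples and so had to differ, and these folds are a description. Epx, the eosinophil peroxidase, had no read in any sample. Il5ra, the receptor for interleukin 5 on eosinophils and some B cells, was at 2.98 to 4.15 FPKM with FK506 and 1.49 to 1.81 with both drugs (log2 fold change -1.0, SE 0.16, edgeR adjusted p = 0.000149).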
